A study of Homo sapiens with 18 samples.

Results

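The genes described here encode 8 drug efflux transporters, ABCC1, ABCC2, ABCC3, ABCC4, ABCC5, ABCC10, ABCB1 and ABCG2. They were taken by symbol from a rule that used no value, though earlier results of these data were known when the set was drawn up, and they are 8 of the 26485 genes listed in each of 2 deposited expression tables. The 18 libraries, made from poly(A) RNA of PANC-1 cells, come from a study that asked how loss or inhibition of PKR, the double-stranded RNA-activated kinase encoded by EIF2AK2, alters pancreatic cancer cells. PANC-1 is an established epithelial line from a human pancreatic ductal carcinoma. In the first run, cells were harvested 72 h after they received Control siRNA, a short double-stranded RNA without a PKR target, or 1 of the siRNAs that direct the breakdown of the PKR transcript. These are called PKR siRNA 1 and 2. In the second run, cells were harvested after 72 h in DMSO, the vehicle, or in C16, an inhibitor of the PKR kinase, at 400 nM (C16_400nM) or 800 nM (C16_800nM). Each of the 6 groups had 3 libraries, all from the same cell line and with no other treatment named. Nothing in the sources states whether the 3 libraries of a group came from separate cultures, so the p-values measure the spread between these libraries, which may be technical.

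ATP-binding cassette (ABC) transporters use the energy of ATP to move molecules across membranes. The ABCC genes described here encode multidrug resistance-associated proteins (MRPs), which export organic anions, among them conjugates with glutathione, glucuronate or sulfate and, for some members, cyclic nucleotides and nucleotide analogues. ABCB1 encodes P-glycoprotein, the pump of bulky hydrophobic drugs, and ABCG2 encodes the breast cancer resistance protein, which works as a dimer. Such transporters help to set how much of a drug stays in a cell, and they are studied in pancreatic carcinoma for that reason.

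ABCC3 fell with each PKR siRNA and with each dose of C16, and with 800 nM C16 it stood at 0.201 of its DMSO level. ABCC1, the most abundant of the 8 per exon length, fell with PKR siRNA 1 and with 800 nM C16. ABCG2 fell with PKR siRNA 1 to 0.354 of control, and it was not called with PKR siRNA 2 or with either dose of C16. ABCC2, at 7 to 27 reads per siRNA library, was called higher with PKR siRNA 2, the group through which it reached the level needed for testing. With all libraries, ABCC5 and ABCC10 passed the test in no comparison and ABCC4 passed the fold threshold in none, and ABCB1 lay below the level needed for testing.

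Promoter sequences are shown for 3 of the 8 genes. ABCG2 and ABCC2 are called members that have a sequence in the RefSeq promoter table, and ABCC10 is a member that was called nowhere and has the most GC boxes. Each window runs 5′ to 3′ on the strand of the gene from 250 bases before the RefSeq start site to 50 bases from it on, in build GRCh38.p14, and 6 of the 8 genes had one, ABCC1 and ABCC3 being without. Capitals mark the GC box, the letters GGGCGG or, on the other strand, CCGCCC. ABCG2 lies at chr4:88231577-88231876 on the minus strand, ABCC2 at chr10:99782390-99782689 on the plus strand and ABCC10 at chr6:43427613-43427912 on the plus strand.
ABCG2: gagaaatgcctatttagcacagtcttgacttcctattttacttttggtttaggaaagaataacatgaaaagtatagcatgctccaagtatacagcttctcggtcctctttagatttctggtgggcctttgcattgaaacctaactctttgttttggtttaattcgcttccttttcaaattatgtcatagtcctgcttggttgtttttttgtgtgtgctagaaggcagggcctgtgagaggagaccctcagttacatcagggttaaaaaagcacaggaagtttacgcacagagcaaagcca
ABCC2: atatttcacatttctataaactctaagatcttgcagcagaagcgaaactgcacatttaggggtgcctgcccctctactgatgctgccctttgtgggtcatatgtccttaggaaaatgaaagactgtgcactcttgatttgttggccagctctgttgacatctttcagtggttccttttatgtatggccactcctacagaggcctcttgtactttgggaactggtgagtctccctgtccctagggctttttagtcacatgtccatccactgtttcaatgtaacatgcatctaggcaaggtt
ABCC10: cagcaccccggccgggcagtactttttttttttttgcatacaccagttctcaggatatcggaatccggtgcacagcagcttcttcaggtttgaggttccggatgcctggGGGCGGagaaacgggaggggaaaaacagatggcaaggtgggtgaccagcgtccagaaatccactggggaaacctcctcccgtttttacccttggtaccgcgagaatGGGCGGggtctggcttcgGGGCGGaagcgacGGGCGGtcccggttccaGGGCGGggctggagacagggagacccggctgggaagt

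The 6 windows differed widely in base composition. GC made up 40.3% of the ABCG2 window, 45.0% of that of ABCC2 and 37.7% of that of ABCB1, against a median of 58.3% over 27305 RefSeq windows. These 3 windows held 3, 1 and 1 CpG dinucleotides, where the median window held 14. The windows of ABCC10, ABCC5 and ABCC4 had 60.3%, 65.7% and 79.7% GC and 20, 26 and 47 CpG. The GC box matched 5 times in ABCC10, 1 time in ABCC5 and 0 times in the other 4, and 44.6% of all windows held it. The TATA box TATAAA matched 1 time each in ABCC5, at position -28 from the start, and in ABCC2, at position -236, and 12.0% of all windows held it. The core of the antioxidant response element, TGACNNNGC, matched in ABCC4 alone, 1 time, and 13.6% of windows held it. The xenobiotic response element core GCGTG matched 3 times in ABCC4 and 1 time in ABCC5, and 36.3% of windows held it. The E-box CACGTG (7.43% of windows), the CCAAT box (35.7%) and the AP-1 site TGANTCA (7.76%) matched in 0 of the 6. Both strands were searched, and a match is a description of these letters only. The RefSeq start of ABCG2 lies 304 bases upstream of the first exon in the deposited table and that of ABCC10 309 bases downstream of it, so that the windows need not hold the starts used in these cells.

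Reads on genes numbered 1512940 to 1873906 in the siRNA libraries and 894145 to 1474308 in the C16 libraries. The authors normalized the 2 tables separately and the runs differ, so that the run and the kind of treatment cannot be told apart and levels were compared only within a table. EIF2AK2, the knocked-down gene, changed by -3.04 and -3.35 on the log2 scale with PKR siRNA 1 and 2 (adjusted p = 4.69e-18 and 2.58e-20, limma, Benjamini-Hochberg). Of the epithelial markers, KRT8, KRT18, KRT19 and SOX9 were abundant in all libraries, with at least 87.6 normalized counts. KRT7 stood at 0.761 to 20.5, CDH1 at 9.07 to 61.7, EPCAM at 9.40 to 120.3 and MUC1 at 13.4 to 63.3. CA9 stood at no more than 1.01, and KRT8, KRT18 and KRT19 carried most of the sum of the 9 markers. The summed level of the 9 epithelial markers moved with the groups, from 5606 to 5725 with Control siRNA to 3375 to 3586 with PKR siRNA 1 and 9878 to 10513 with PKR siRNA 2, and from 7321 to 7730 with DMSO to 6176 to 6664 with 400 nM and 5297 to 5812 with 800 nM C16; its part in the results below was not tested. Of the 4 leukocyte markers CD68 alone was above 0 and moved, from 147 to 169 with Control siRNA to 205 to 273 and 194 to 204 with PKR siRNA 1 and 2, and from 51.0 to 57.3 with DMSO to 141 to 171 and 104 to 123 with 400 nM and 800 nM C16, while PTPRC, CD3E and MS4A1 were at 0 in all 18 libraries. Of the 5 fibroblast markers COL1A1 carried nearly all of the sum, which ranged from 82.1 to 111.7 with Control siRNA, 23.6 to 31.1 with PKR siRNA 1, 118 to 120.4 with PKR siRNA 2, 131 to 161 with DMSO, 104 to 162 with 400 nM and 60.1 to 93.8 with 800 nM C16, while COL1A2 and DCN were at 0 in all libraries. Acinar, islet, endothelial and hepatocyte markers had at most 1.22 normalized counts in any library. In bulk RNA, fewer cells of a type and less RNA per cell cannot be told apart.

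Levels between genes are given as normalized counts per kb of exon, with the exon length of the deposited table. With Control siRNA, ABCC1 stood first at 104.5 ± 8.26 (SD, n = 3) per kb, followed by ABCG2 at 35.3 ± 2.36, ABCC3 at 26.7 ± 1.93 and ABCC4 at 24.7 ± 1.87. ABCC10 followed at 18.8 ± 2.05 and ABCC5 at 17.9 ± 1.13, and ABCC2 at 1.73 ± 0.387 was the lowest gene with reads in this group. The libraries of ABCC3 and ABCC4 overlapped, as did those of ABCC10 and ABCC5, whereas the other neighbours in this order did not. ABCB1 had 0 reads among 5117905.

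With DMSO the order was ABCC1, ABCC3, ABCC4, ABCC5, ABCC10, ABCG2, ABCC2 and ABCB1. ABCC1 stood at 47.9 ± 5.48 per kb (SD, n = 3), ABCC3 at 27.7 ± 3.42 and ABCC4 at 17.3 ± 2.06. The levels of ABCC5 (11.1 ± 1.18), ABCC10 (10.7 ± 0.717) and ABCG2 (9.26 ± 1.25) overlapped from one neighbour to the next. ABCC2 stood at 1.15 ± 0.538 per kb. ABCC1 is listed in the table both on chromosome 16 and on an alternate sequence of that chromosome, and its exon length of 13127 bases falls to 6563 with the main chromosome alone, which puts it at 209 and 95.7 per kb, first with either length. How reads that map to both sequences were counted is not given in the sources used here, so the count of ABCC1 is itself uncertain.

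**Figure D1:**
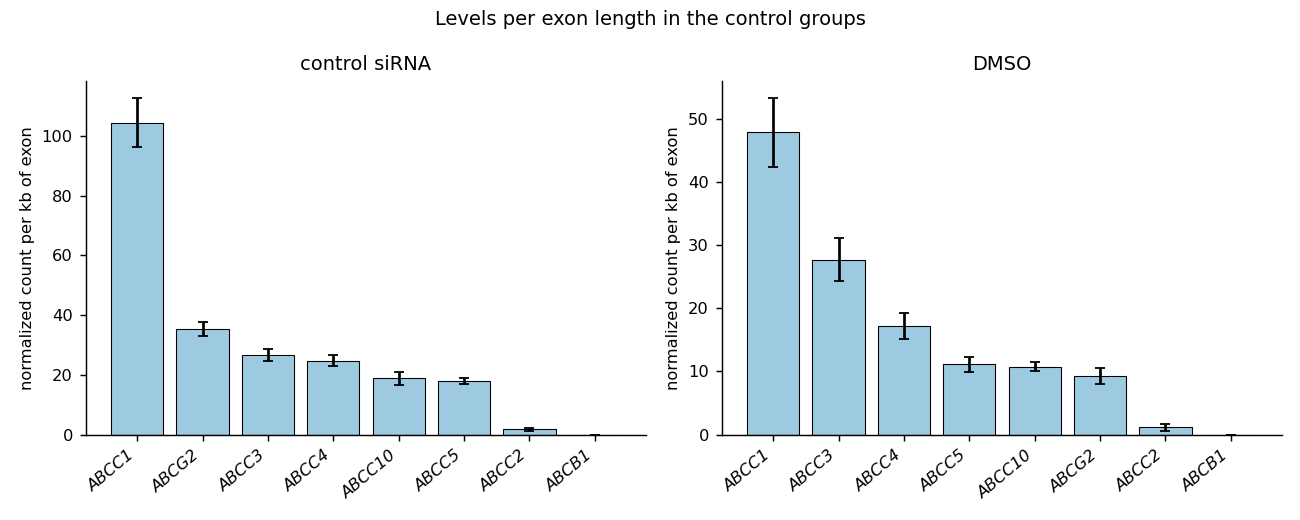
Level of the 8 drug efflux transporter genes in the Control siRNA (left) and DMSO (right) libraries, in normalized counts per kb of exon with the length of the deposited table; bars are means and whiskers SDs of 3 libraries, and the y axes differ. ABCC1 stood highest in both, and ABCC2 and ABCB1 lay near 0.

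In the siRNA libraries, 7 of the 8 genes reached the mean of 10 normalized counts that the test across genes required, and ABCB1 did not. A gene was called when limma's adjusted p was under 0.05 and its fold change over 1.5, and fold changes are on the scale of log2 (normalized count + 1), which understates the change of low genes. With PKR siRNA 1 against Control siRNA, 3 members were lowered and 0 raised, where 12.6% of all genes tested were lowered and 8.53% raised. With PKR siRNA 2 against Control siRNA, 1 member was lowered and 1 raised, where 12.8% of genes were lowered and 10.8% raised. Between PKR siRNA 2 and PKR siRNA 1, 2 members were raised and 0 lowered, where 16.4% of genes were raised and 15.3% lowered. ABCC2 is among the raised members in both comparisons of PKR siRNA 2, and it reached the mean of 10 only through that group. The median log2 fold change of the 7 members was -0.22, 0.04 and 0.49 in the 3 comparisons, against -0.01 for all genes in each. Both medians for PKR siRNA 2 include ABCC2, so the filter itself can raise them, and nothing is concluded from their distance to all genes.

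**Figure D2:**
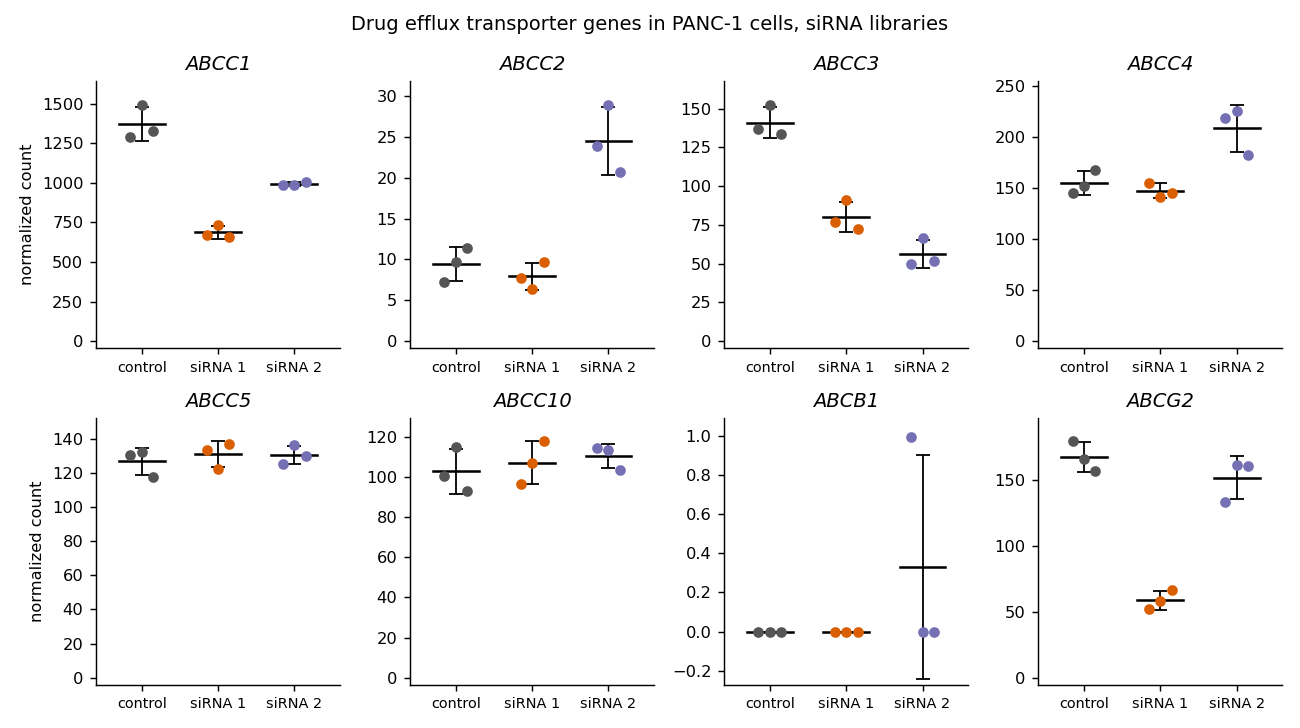
Normalized counts of the 8 drug efflux transporter genes in the 9 siRNA libraries, 1 point per library; the horizontal line is the mean and the whiskers the SD of 3 libraries, and each gene has its own y axis. ABCG2 was low with PKR siRNA 1 alone, and ABCC3 was low with both PKR siRNAs.

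ABCC1 encodes MRP1, the founding member of the subfamily and an exporter of glutathione conjugates such as leukotriene C4. It lies on the plus strand of chromosome 16 at chr16:15949577-16143073 (hg38, 31 exons in the table). Its normalized counts were 1291, 1495 and 1331 with Control siRNA and 669, 736 and 658 with PKR siRNA 1, while PKR siRNA 2 gave 989, 985 and 1006. The 3 groups did not overlap, and PKR siRNA 2 lay between the other two. PKR siRNA 1 changed ABCC1 by -1.0 on the log2 scale (SE 0.06, 95% interval -1.10 to -0.89, adjusted p = 6.98e-27, limma and Benjamini-Hochberg). For PKR siRNA 2 the value was -0.46 (95% interval -0.57 to -0.35, adjusted p = 2.82e-11, limma), which is under the fold threshold. The difference between the siRNAs was 0.53 (95% interval 0.42 to 0.64, adjusted p = 9.32e-14, limma), likewise under it.

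ABCC3 encodes MRP3, an exporter of glucuronide conjugates and bile acids on the basolateral membrane of epithelia. It lies on the plus strand at chr17:50634857-50691702 (hg38, 30 exons). Normalized counts of ABCC3 were 137, 153 and 134 with Control siRNA and 76.6, 90.7 and 72.4 with PKR siRNA 1, while PKR siRNA 2 gave 49.7, 66.5 and 51.7. As for ABCC1, the groups did not overlap, here with PKR siRNA 2 lowest. Relative to control, the log2 change was -0.82 with PKR siRNA 1 (SE 0.13, 95% interval -1.08 to -0.55, adjusted p = 2.70e-07, limma) and -1.33 with PKR siRNA 2 (SE 0.13, 95% interval -1.59 to -1.06, adjusted p = 3.19e-14, limma). PKR siRNA 2 lay below PKR siRNA 1 by -0.51 (95% interval -0.77 to -0.25, adjusted p = 0.000630, limma), under the fold threshold. ABCC1 and ABCC3 are on a list of lowered genes that the study drew from these libraries, so their direction is not independent evidence. That list holds genes lowered past the same fold threshold with both PKR siRNAs and with C16. Here ABCC1 with PKR siRNA 2 stood at -0.46 on the log2 scale, 1.38-fold lower, and was not called, unlike on that list. The reason for this difference was not tested.

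ABCG2 encodes the breast cancer resistance protein, which exports, among others, urate and porphyrins. It lies on the minus strand at chr4:88090264-88231322 (hg38, 17 exons), next to the window printed above. The libraries held 180, 167 and 157 normalized counts with Control siRNA and 52.2, 58.0 and 66.6 with PKR siRNA 1, while PKR siRNA 2 gave 133, 162 and 161. The PKR siRNA 1 libraries stood apart below all others, and those of PKR siRNA 2 overlapped with the controls. ABCG2 changed by -1.50 on the log2 scale with PKR siRNA 1 (SE 0.12, 95% interval -1.73 to -1.27, adjusted p = 3.37e-19, limma), rank 188 by size among 10593 genes. With PKR siRNA 2 it was -0.15 (95% interval -0.38 to 0.08, adjusted p = 0.306, limma). The siRNAs themselves differed by 1.35 (SE 0.12, 95% interval 1.12 to 1.58, adjusted p = 2.07e-17, limma), with PKR siRNA 2 higher.

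ABCC2 encodes MRP2, the exporter of conjugates on the apical membrane, known from the bile canaliculus of the liver. It lies on the plus strand at chr10:99782598-99852192 (hg38, 32 exons). The libraries held 7.19, 9.67 and 11.4 normalized counts with Control siRNA and 7.78, 6.35 and 9.65 with PKR siRNA 1, while PKR siRNA 2 gave 23.9, 29.0 and 20.7. All 3 libraries of PKR siRNA 2 lay above the other 6, and it was through them that ABCC2 reached the mean needed for testing. These values rest on 28, 24 and 73 reads per group. The log2 fold change of ABCC2 was 1.30 with PKR siRNA 2 (SE 0.32, 95% interval 0.66 to 1.94, adjusted p = 0.000519, limma) and -0.22 with PKR siRNA 1 (95% interval -0.86 to 0.43, adjusted p = 0.613, limma). PKR siRNA 2 stood above PKR siRNA 1 by 1.52 (SE 0.32, adjusted p = 4.10e-05, limma). With a minimum mean of 30 normalized counts ABCC2 was not tested, and the calls fell from 2 members to 1 in both comparisons with PKR siRNA 2.

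ABCC4 encodes MRP4, an exporter of cyclic nucleotides and prostaglandins, and lies on the minus strand at chr13:95019829-95301446 (hg38). Its normalized counts were 145, 153 and 168 with Control siRNA and 156, 141 and 146 with PKR siRNA 1, while PKR siRNA 2 gave 219, 225 and 182. The PKR siRNA 2 libraries lay above the other 6, which overlapped. On the log2 scale the value with PKR siRNA 2 was 0.42 (95% interval 0.23 to 0.62, adjusted p = 0.000184, limma), and its difference from PKR siRNA 1 was 0.49 (95% interval 0.30 to 0.69, adjusted p = 1.14e-05, limma), both under the fold threshold. Without the third PKR siRNA 2 library, the lowest of its group, that difference was 0.59 and passed it. With PKR siRNA 1 it was -0.07 (95% interval -0.26 to 0.12, adjusted p = 0.593, limma).

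ABCC5 encodes MRP5, like MRP4 an exporter of cyclic nucleotides and nucleotide analogues, and lies on the minus strand at chr3:183919936-184017939 (hg38). Its normalized counts spanned 118 to 137 over the 9 libraries, and the 3 groups overlapped. The 95% intervals of its log2 fold change were -0.16 to 0.26 with PKR siRNA 1 and -0.17 to 0.25 with PKR siRNA 2 (adjusted p = 0.749 and 0.769, limma). ABCC10 encodes MRP7, an exporter of lipophilic anions, on the plus strand at chr6:43427554-43450425 (hg38), and shares 74 exon bases, 1.35% of its length, with DLK2 on the other strand. Its normalized counts spanned 92.9 to 118 and the groups overlapped. The 95% intervals of its log2 fold change were -0.17 to 0.29 with PKR siRNA 1 and -0.13 to 0.34 with PKR siRNA 2 (adjusted p = 0.713 and 0.475, limma). For both genes these intervals exclude a 1.5-fold change with either siRNA.

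ABCB1, on the minus strand at chr7:87503863-87713323 (hg38), had 0 reads in all Control siRNA and PKR siRNA 1 libraries and 1 read in the 3 PKR siRNA 2 libraries. A count of 0 in a group allows up to 3 reads, here 1.02 normalized counts with Control siRNA and 0.994 with PKR siRNA 1, as counting error only. At this depth the transcript of P-glycoprotein was not detectable in those groups.

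In the C16 libraries the same 7 members were tested. With 800 nM C16 against DMSO, 2 members were lowered and 0 raised, where 14.1% of all genes tested were lowered and 11.6% raised. With 400 nM C16 against DMSO, 1 member was lowered and 0 raised, where 5.45% of genes were lowered and 7.08% raised. Between 800 nM and 400 nM C16, 1 member was lowered and 0 raised, where 3.95% of genes were lowered and 1.13% raised. The median log2 fold change of the members was -0.03, 0.10 and -0.14 in these comparisons, against 0.00, 0.00 and -0.02 for all genes. The medians include ABCC2, which passed the filter through the C16 groups, so the filter can raise those against DMSO. Both doses were compared with the same DMSO libraries.

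**Figure D3:**
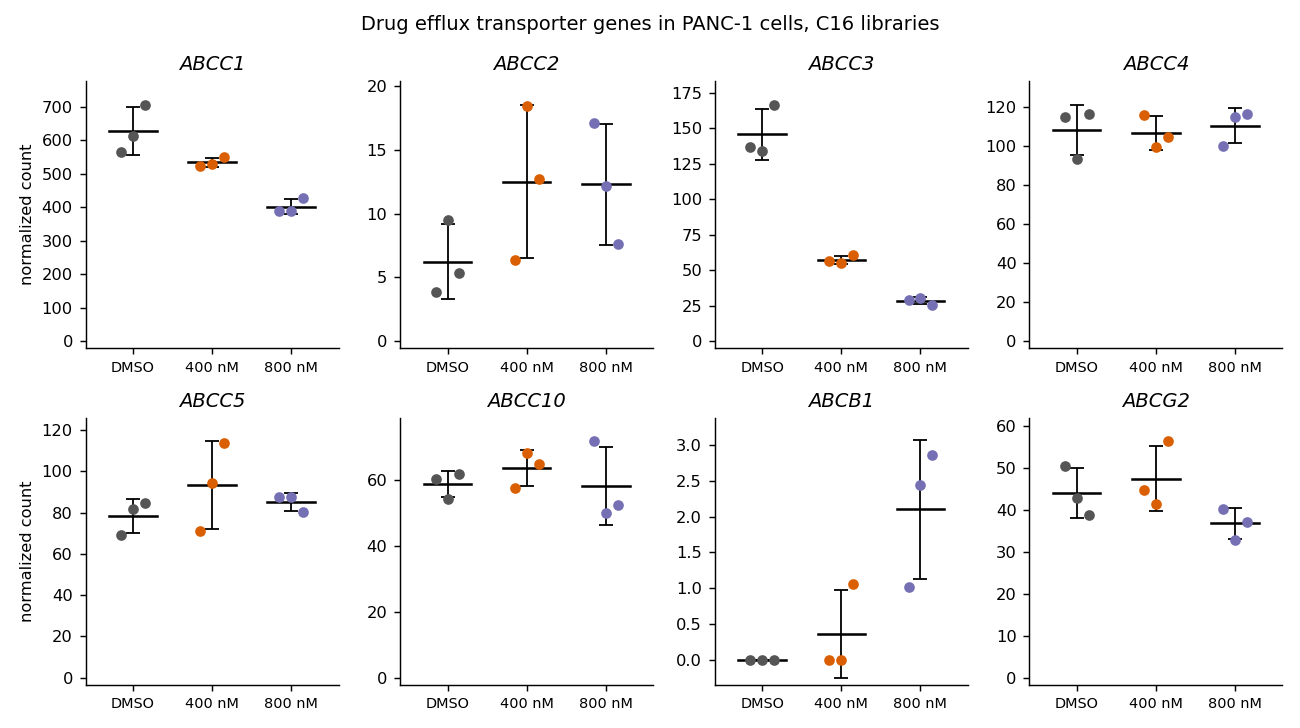
Normalized counts of the 8 drug efflux transporter genes in the 9 C16 libraries, 1 point per library; the horizontal line is the mean and the whiskers the SD of 3 libraries, and each gene has its own y axis. ABCC1 and ABCC3 stepped down from DMSO to 400 nM to 800 nM with no overlap between groups.

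ABCC3, the exporter of glucuronides, had the largest change of the members with C16. Its normalized counts were 137, 134 and 167 with DMSO, 56.4, 55.4 and 60.6 with 400 nM, and 29.3, 30.5 and 25.8 with 800 nM C16. Every library of a higher dose lay below every library of the lower one. The log2 fold change against DMSO was -1.32 at 400 nM (SE 0.15, 95% interval -1.62 to -1.03, adjusted p = 1.57e-10, limma), rank 133 by size among 9963 genes. At 800 nM it was -2.31 (SE 0.15, 95% interval -2.61 to -2.01, adjusted p = 4.97e-20, limma), rank 44 by size and 4.97-fold lower. Between the doses the step was -0.99 (SE 0.15, 95% interval -1.29 to -0.69, adjusted p = 1.65e-06, limma).

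ABCC1, the exporter of glutathione conjugates, followed the same order of groups with smaller steps. Its normalized counts were 565, 612 and 707 with DMSO, 524, 529 and 549 with 400 nM, and 388, 389 and 427 with 800 nM C16. The groups did not overlap, and the DMSO libraries were the most spread. The log2 fold change against DMSO was -0.64 at 800 nM (SE 0.07, 95% interval -0.79 to -0.49, adjusted p = 1.71e-10, limma). At 400 nM it was -0.23 (95% interval -0.38 to -0.08, adjusted p = 0.0170, limma), and between the doses it was -0.41 (95% interval -0.56 to -0.26, adjusted p = 5.03e-05, limma), both under the fold threshold. The third DMSO library held the highest ABCC1 count, and without it the value at 800 nM was -0.55, under the fold threshold, which left 1 member called.

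ABCG2 stood at 50.5, 42.9 and 38.8 normalized counts with DMSO, 44.7, 41.5 and 56.4 with 400 nM, and 40.3, 32.9 and 37.2 with 800 nM C16. The DMSO libraries overlapped with those of both doses. Its log2 fold change against DMSO was -0.25 at 800 nM (95% interval -0.61 to 0.11, adjusted p = 0.269, limma) and 0.10 at 400 nM (95% interval -0.26 to 0.47, adjusted p = 0.719, limma). All 800 nM libraries lay below those of 400 nM, by -0.35 (95% interval -0.72 to 0.01, adjusted p = 0.195, limma).

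ABCC2 had 3.89, 9.52 and 5.33 normalized counts with DMSO, 6.38, 18.5 and 12.8 with 400 nM, and 17.1, 12.2 and 7.63 with 800 nM C16. The groups overlapped, and they rest on 21, 34 and 35 reads. The log2 fold change against DMSO was 0.89 at 800 nM (SE 0.39, 95% interval 0.12 to 1.66, adjusted p = 0.0543, limma) and 0.87 at 400 nM (SE 0.39, 95% interval 0.10 to 1.64, adjusted p = 0.0893, limma). Both missed the threshold, and ABCC2 reached the mean needed for testing through the C16 groups. The edgeR quasi-likelihood test on recovered reads called it at 800 nM (log2 fold change 0.98, adjusted p = 0.0394, Benjamini-Hochberg adjustment). At 800 nM it was called also without the second DMSO library (1.20) or without the third of 800 nM (1.17). At 400 nM it was called without the second DMSO library (1.17) or without the first of 400 nM (1.25), which gave 2 members called in place of 1. No other alternative that tested ABCC2 called it against DMSO, with values down to 0.62 at 800 nM and 0.55 at 400 nM. Since ABCC2 passed the filter through the C16 groups, these calls are no separate support for a rise.

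ABCC4 had normalized counts of 93.3 to 117 with DMSO, 99.2 to 116 with 400 nM and 99.9 to 116 with 800 nM C16, and the groups overlapped. The 95% interval of its log2 fold change was -0.21 to 0.27 at 800 nM and -0.26 to 0.22 at 400 nM (adjusted p = 0.852 and 0.928, limma), which excludes a 1.5-fold change at either dose. ABCC5 had 69.0 to 84.5 with DMSO, 71.3 to 114 with 400 nM and 80.2 to 87.8 with 800 nM, with intervals of -0.16 to 0.40 at 800 nM and -0.05 to 0.50 at 400 nM (adjusted p = 0.495 and 0.238, limma). ABCC10 had 54.3 to 61.7 with DMSO, 57.4 to 68.0 with 400 nM and 49.96 to 71.6 with 800 nM, with intervals of -0.35 to 0.28 at 800 nM and -0.20 to 0.42 at 400 nM (adjusted p = 0.878 and 0.652, limma). The groups of ABCC5 and of ABCC10 overlapped too, and the intervals at 800 nM exclude a 1.5-fold change of either gene.

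ABCB1 had 0 reads with DMSO, 1 read with 400 nM and 6 reads with 800 nM C16. The 800 nM libraries held 1.01, 2.44 and 2.86 normalized counts, and all 3 DMSO libraries were at 0. The 3 reads that a count of 0 allows over the DMSO group are 0.895 normalized counts, and the 800 nM mean of 2.10 was 2.35 times that. The counting error of the 6 reads themselves is left out, so 2.35 is not a lower bound of the change. The exact permutation test of this difference gave p = 0.1 (two-sided, 3 against 3 libraries), the smallest p that the design allows, and 0.24 after Benjamini-Hochberg adjustment over the 48 member and comparison pairs. Without the filter on low values, limma gave ABCB1 a log2 fold change of 1.58 at 800 nM (95% interval 0.70 to 2.46, adjusted p = 0.00444 over 17683 genes), past both thresholds, which made 3 members called in place of 2. This call rests on 6 reads against 0.

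The same test gave these values, 0.1 and 0.24, for every pair of groups described above as not overlapping, since it cannot fall lower with 3 libraries against 3.

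**Figure D4:**
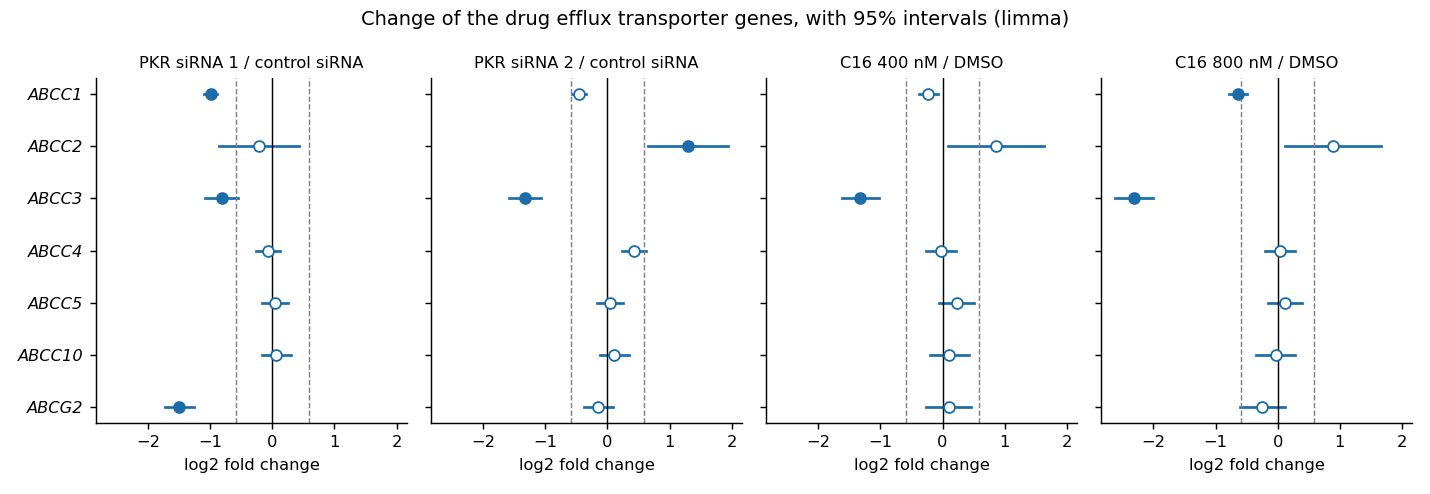
Log2 fold change of the 7 tested members against the control group of the same table, with 95% intervals from limma; filled points passed both thresholds and dashed lines mark a 1.5-fold change. ABCC3 lies left of the dashed line in all 4 panels.

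As a description of patterns, the genes most alike to ABCC1 and ABCC3 were sought, from a mean of 50 normalized counts upward, by Pearson's r of log2 values over the 9 libraries of a table, which share their groups and controls. For ABCC1 they were SEMA4B (r = 0.994), GDF15 (0.993) and ECE1 (0.991) among 6774 genes of the siRNA libraries. In the C16 libraries they were AHNAK (0.997), TNRC18 (0.988) and DAG1 (0.987) among 5323 genes. For ABCC3 they were FKBP10 (0.985), UBA1 (0.984) and PLCH2 (0.982) in the siRNA libraries, and ECH1 (0.993), TAPBP (0.992) and MED29 (0.991) in the C16 libraries.

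The tables list 40 further ABC genes. With PKR siRNA 1, 3 of the 20 tested were lowered and 1 raised, and with PKR siRNA 2, 2 were lowered and 2 raised. With 800 nM C16, 3 of the 18 tested were lowered and 1 raised. These are 20%, 20% and 22.2% of those tested, where 21.1%, 23.5% and 25.7% of all genes were called in either direction. With 400 nM limma called 0, where 7 had an unadjusted p under 0.05, edgeR called 1 and DESeq2 0. Their median log2 fold change was 0.09 and -0.10 with the siRNAs and 0.05 and 0.08 with 800 nM and 400 nM C16, where that of all genes stayed within 0.02 of 0. The largest changes with PKR siRNA 1 were in ABCD3, a peroxisomal fatty acid transporter (129 ± 17.7 to 64.0 ± 6.74 normalized counts, log2 fold change -1.0), ABCB6, a porphyrin transporter (42.7 ± 8.26 to 81.3 ± 6.30, 0.93), and ABCC9, a subunit of potassium channels (31.7 ± 2.32 to 16.8 ± 2.02, -0.88). With PKR siRNA 2 they were in ABCA1, the cholesterol exporter (-0.77), ABCB6 (0.64) and TAP2, a subunit of the peptide transporter of antigen presentation (-0.64). With 800 nM C16 they were in ABCA5 (-1.11), ABCB9, a lysosomal peptide transporter (-0.85), and ABCB8, of the inner mitochondrial membrane (-0.82). With 800 nM C16 the raised gene was TAP2 (0.61). TAP2 is listed on 8 sequences of the build, so its count is uncertain.

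Genes that make the substrates of the MRP pumps were also counted. Of 12 genes of glutathione synthesis and conjugation tested in the siRNA libraries, 0 were lowered and 1 raised with PKR siRNA 1, and 1 was lowered and 1 raised with PKR siRNA 2. Of 11 tested in the C16 libraries, 1 was lowered and 2 raised with 800 nM, and 1 was raised with 400 nM. These counts are 8.33% and 16.7% of the genes with PKR siRNA 1 and 2, against 21.1% and 23.5% of all genes. For 800 nM and 400 nM they are 27.3% and 9.09%, against 25.7% and 12.5%. The medians were 0.18 and -0.13 with the siRNAs, and -0.16 and -0.17 with 800 nM and 400 nM. GSTP1, a glutathione transferase, rose with PKR siRNA 1 from 357 ± 8.37 to 626 ± 58.0 normalized counts (log2 fold change 0.81). GSTM3, of the same family, rose with PKR siRNA 2 (1.42) and fell with 800 nM C16 (-1.04). SLC7A11, the cystine importer that feeds glutathione synthesis, fell with PKR siRNA 2 (-0.74) and rose from 43.7 ± 4.87 with DMSO to 130.3 ± 28.5 with 400 nM (1.54) and 107 ± 15.9 with 800 nM C16 (1.27). GCLM, the regulatory subunit of the enzyme that starts glutathione synthesis, rose with 800 nM C16 (0.80).

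Of the 4 genes of glucuronidation and sulfation that were tested, 1 rose with PKR siRNA 1 and 2 with PKR siRNA 2, while 1 rose and 1 fell with 800 nM and 1 rose with 400 nM C16. These counts are 25% and 50% of the genes with PKR siRNA 1 and 2, against 21.1% and 23.5% of all genes. For 800 nM and 400 nM they are 50% and 25%, against 25.7% and 12.5%. The medians were 0.44 and 0.46 with the siRNAs, and -0.26 and -0.21 with 800 nM and 400 nM. UGDH, which makes the glucuronate donor, rose with PKR siRNA 2 from 292 ± 12.2 to 957 ± 34.1 normalized counts (log2 fold change 1.71) and fell with 800 nM C16 (-0.81). PAPSS1, which makes the sulfate donor, rose with both siRNAs (1.10 and 1.01). PAPSS2, its paralog, rose with both doses of C16 (0.84 at 400 nM and 1.20 at 800 nM). All calls of this list against a control were in these 3 enzymes of donor synthesis. No glucuronate or sulfate transferase of the list was among the 4 genes tested in the siRNA libraries, so none could be called there.

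Of 17 tested transcription factors known to act on efflux transporter genes, PKR siRNA 1 lowered 1 and raised 2, and PKR siRNA 2 raised 3. With 800 nM C16 3 were lowered and 2 raised, and with 400 nM 1 was lowered and 2 raised. These counts are 17.6% of the genes with each siRNA, against 21.1% and 23.5% of all genes. For 800 nM and 400 nM they are 29.4% and 17.6%, against 25.7% and 12.5%. The medians were 0.03 and 0.11 with the siRNAs, and -0.03 and -0.07 with 800 nM and 400 nM. With PKR siRNA 1, KLF4 (log2 fold change 1.07) and MYC (134 ± 7.41 to 276 ± 7.63 normalized counts, 1.04) rose and ARNT, the partner of the aryl hydrocarbon receptor, fell (-0.76). With PKR siRNA 2, PPARA, a nuclear receptor of fatty acids (1.39), SP1, which binds GC boxes (0.67), and RXRA, the shared partner of several nuclear receptors (0.64), rose. With C16, VDR, the vitamin D receptor, rose from 4.05 ± 3.29 normalized counts to 13.9 ± 2.97 at 400 nM (1.74) and 12.9 ± 4.78 at 800 nM (1.61), and it was tested only because of its C16 libraries. MAFG, a partner of NRF2 at antioxidant response elements, rose at both doses (0.68 and 0.80), and RXRA fell at 400 nM (-0.61) and 800 nM (-0.67), as PPARA did at 800 nM (-0.62).

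Genes of nucleoside drug uptake and activation bear on gemcitabine, the cytidine analogue used in this cancer. The list also holds nucleotidases and subunits of ribonucleotide reductase, so its counts and medians are no measure of drug activation. Of 16 genes of this list that were tested, 2 were lowered by each siRNA and 0 raised. Of 15 tested in the C16 libraries, 5 were lowered and 5 raised with 800 nM, and 0 were lowered and 2 raised with 400 nM. These counts are 12.5% of the genes with each siRNA, against 21.1% and 23.5% of all genes. For 800 nM and 400 nM they are 66.7% and 13.3%, against 25.7% and 12.5%. The medians were -0.27 and -0.19 with the siRNAs, and 0.33 and 0.14 with 800 nM and 400 nM. SLC29A1, the equilibrative nucleoside importer, fell with PKR siRNA 1 from 605 ± 48.4 to 350.4 ± 16.7 normalized counts (log2 fold change -0.78) and with 800 nM C16 from 425 ± 21.7 to 207 ± 16.0 (-1.03). TK2, a mitochondrial nucleoside kinase, fell with PKR siRNA 1 (-0.69). RRM1, a subunit of ribonucleotide reductase, and DCK, the kinase that activates gemcitabine, fell with PKR siRNA 2 (-0.73 and -0.66). RRM2, the partner of RRM1, and DCK rose with 400 nM C16 (0.78 and 0.63) and with 800 nM (both 0.76), and RRM1 rose with 800 nM (0.78). NT5C and NT5C2, nucleotidases, fell with 800 nM C16 (-1.13 and -0.83), as did TK2 (-0.65).

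Of 8 tested genes of organic anion and cation uptake, 1 was lowered by PKR siRNA 1, 2 were lowered and 1 raised by PKR siRNA 2, 1 was lowered and 1 raised by 800 nM C16, and 1 was raised by 400 nM. These counts are 12.5% and 37.5% of the genes with PKR siRNA 1 and 2, against 21.1% and 23.5% of all genes. For 800 nM and 400 nM they are 25% and 12.5%, against 25.7% and 12.5%. The medians were 0.07 and -0.08 with the siRNAs, and 0.22 and 0.15 with 800 nM and 400 nM. SLCO3A1 fell (-1.14) and SLCO4A1 rose (1.12) with PKR siRNA 2, both of them organic anion importers. SLC22A18 fell with PKR siRNA 2 (-1.21). SLC31A1, the copper importer, rose with 400 nM (0.85) and 800 nM C16 (1.01). SLC46A1, the proton-coupled folate importer, was called with PKR siRNA 1 (-1.19) and 800 nM C16 (-0.81), but it shares 59.1% of its exon bases with SARM1 on the other strand. SLCO4A1 shares 12.5% with an antisense gene, and SLC22A18 shares 6.22% with one and lies on 2 sequences of the build, and whether counting used strand is not given in the sources used here.

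Of 5 tested membrane scaffolds that bind ABC transporters, 1 was raised and 1 lowered by PKR siRNA 1, 1 was raised by PKR siRNA 2, 1 was raised and 1 lowered by 800 nM C16, and 1 was lowered by 400 nM. These counts are 40% and 20% of the genes with PKR siRNA 1 and 2, against 21.1% and 23.5% of all genes. For 800 nM and 400 nM they are 40% and 20%, against 25.7% and 12.5%. The medians were 0.06 and 0.27 with the siRNAs, and 0.13 and 0.27 with 800 nM and 400 nM. MSN, moesin, rose with PKR siRNA 1 from 760 ± 45.1 to 1334 ± 81.9 normalized counts (log2 fold change 0.81), and RDX, radixin, rose with PKR siRNA 2 (0.70). SLC9A3R2 fell with PKR siRNA 1 (-0.59), with 400 nM (-0.71) and with 800 nM C16 (-0.93). SLC9A3R1, its paralog, rose with 800 nM C16 (0.67).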

How the data were processed

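RNA of PANC-1 cells from 6 groups of 3 libraries was analysed, grouped by the sample labels; both C16 doses come from the labels. The authors aligned reads with TopHat (hg38), summed them over genes by featureCounts and applied the TMM method of TCC. What they deposited is therefore a scaled signal for each gene: its number of reads over the scaling factor of the library. Values were whole multiples of 1 read in 100.0% of cases (tolerance 0.01), so reads were recovered for edgeR and DESeq2. In the first libraries of PKR siRNA 2 and of 800 nM C16, 1 read was worth 0.995 and 1.01 normalized counts, close to but not 1. Version, annotation and strand setting of the counting are not given in the sources used here. The length column was used for levels per kb. All columns could be assigned to a sample (0 left over).

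Values were tested two-sided as log2 (value + 1) with limma 3.58.1 in R 4.3.3 (trend), with the 9 libraries of each table fitted together, for genes averaging 10 or more, with Benjamini-Hochberg adjustment over 10593 or 9963 genes. Calls needed an adjusted p under 0.05 and over 1.5-fold, as in the study. The members and all gene lists were chosen with earlier results of these data known. Named genes were the 8 members, EIF2AK2, up to 3 called genes of each list with the largest change per comparison with a control, and the 3 genes most correlated with ABCC1 and ABCC3. A gene that this rule names is not reported here. The fits were repeated with a pseudocount of 0.5 or 5, without the filter or with a minimum of 30, after median-of-ratios rescaling, with the third group left out, with a block for replicate number, with edgeR 4.0.16 and DESeq2 1.42.0, and without each library in turn. edgeR called 1310 genes lower and 954 higher with PKR siRNA 1, 1319 lower and 1240 higher with the second siRNA, 1425 and 1229 with 800 nM C16, and 619 and 700 with 400 nM. The limma script was tested on simulated reads. Libraries of a group differed by more than sampling noise (chi-square over genes), so none were merged.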

Additional observations from a re-analysis of the deposited data

How the results depend on the processing

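Of the 6 counts of called members, 4 stayed within 1.5 times of their value in all fits that kept every library. A minimum mean of 30 left 1 member called with PKR siRNA 2 against Control siRNA and 1 against PKR siRNA 1, since ABCC2 was then not tested. With 1 library left out, the count ranged from 1 to 3 with 800 nM C16 against DMSO, from 1 to 2 with 400 nM and from 2 to 3 between the siRNAs. The level per kb of ABCC1 moved to 209 with Control siRNA and 95.7 with DMSO on the main chromosome alone, an alternative chosen after seeing the data. A minimum mean of 30, which tests fewer genes, lowered the calls over all genes from 1403 lower and 1158 higher to 800 and 818 with 800 nM C16 against DMSO, from 543 and 705 to 296 and 473 with 400 nM, and from 394 and 113 to 231 and 82 between the doses, where DESeq2 gave 137 and 51.

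No called fold change turned its direction in any alternative that was run. Uncalled values near 0 did, in 4 fits with all libraries and 21 with 1 left out. ABCC5 between the siRNAs was 0.0032 with edgeR and 0.0041 with DESeq2, and ABCC2 between the C16 doses was -0.0035 with edgeR and -0.0041 with DESeq2. With 1 library left out, ABCC5 ranged from -0.0055 to 0.094 with PKR siRNA 1, from -0.010 to 0.074 with PKR siRNA 2, from -0.052 to 0.029 between the siRNAs and from -0.28 to 0.052 between the doses. ABCC10 ranged from -0.010 to 0.14 with PKR siRNA 1, from -0.024 to 0.12 between the siRNAs and from -0.19 to 0.063 with 800 nM. ABCC4 ranged from -0.070 to 0.10 with 800 nM and from -0.12 to 0.038 with 400 nM, ABCG2 from -0.024 to 0.20 with 400 nM, and ABCC2 from -0.36 to 0.34 between the doses. The cause of these turns was not tested. Between the siRNAs, ABCC3 passed the fold threshold without the second library of PKR siRNA 2 (-0.64) and ABCC4 without the third (0.59).

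No pairing by replicate number was seen, since the deviations of same-numbered libraries correlated between -0.049 and 0.032. How the cultures were set up cannot be told from these values. With the replicate block the counts of called members stayed at 3, 2, 2, 2, 1 and 1, and no member's call changed. Depth limits ABCC2 and ABCB1 most, with at most 73 and 6 reads in any group.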
